A study of Rattus norvegicus with 44 samples.

Results

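Wild-type rat kidney cortex at birth and at day 5 is described here from 7 of the 44 libraries of the series. Of these, 4 came from animals labelled PND0_WT and 3 from animals labelled PND5_WT, where PND stands for postnatal day. Genes were taken when at least 3 of the 7 libraries held 1 FPKM or more (FPKM are reads scaled to gene length and library size), which left 14273 of the 32545 genes in the table. All 7 animals were male rats (Rattus norvegicus) labelled wild type (WT) at Xdh, the gene of xanthine dehydrogenase, with no treatment in the labels. The series asks how Xdh bears on kidney maturation, and these 7 animals give its normal course over the first days of life. Other groups used below were 3 PND0_Het, 4 PND5_Het, 4 PND0_Homo and 4 PND5_Homo libraries, labelled heterozygous or homozygous at Xdh, and WT libraries at PND15 (4) and PND21 (3). The strain, the kind of Xdh allele and the litter of each animal are not given in the sources used here. P-values therefore measure only the spread between animals, some of which may be littermates. For gene tests that spread was estimated over all 44 libraries, which also include PND15_Het (4), PND15_Homo (4), PND21_Het (4) and PND21_Homo (3).

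The kidney of a newborn rat is still being built. In its outer cortex, nephron progenitors that express the transcription factor Six2 surround the tips of the branching ureteric bud. The progenitors release GDNF, which acts on the receptor Ret and its partner Gfra1 at the tips and keeps them branching, with Etv4 and Etv5 among its targets. Progenitors leave this pool to form nephrons until it is used up, while nephrons formed earlier lengthen and take up the transport of the mature tubule.

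The 7 libraries held 12686228 to 20895970 reads counted on genes, with a median of 14488596. Pearson r of log2 values between replicates, across genes, was 0.968 to 0.985 at PND0 and 0.979 to 0.984 at PND5, and the chi-square per degree of freedom of their counts was 6.24 to 26.3, above what counting alone gives. Markers of the labelled tissue were abundant in each library: Slc34a1, the phosphate carrier of the proximal tubule, stood at 378 to 652 FPKM. The pairs with PND0_WT replicate 3 had the highest chi-squares (21.8 to 26.3). When libraries were weighted by their quality, this library had the lowest weight of the 7 (0.280). PND0_WT replicate 4 stood apart in markers of neighbouring tissue. The summed FPKM of 12 skeletal muscle genes was 81.3 there against 7.10 to 9.14 in the other 6 libraries, and that of 14 adrenal genes 34.2 against 12.5 to 14.9 in the other newborns and 6.71 to 8.27 at PND5. The sum of 12 fat genes was 33.6 to 72.0 at PND0 and 68.6 to 179 at PND5, with Ucp1, the heat-making protein of brown fat, at 0 to 0.426 and 2.87 to 15.2 FPKM. Of 9 fat genes tested, 8 were higher at day 5 and 1 lower, with a median log2 difference of 1.26. In the gene tests described below, 0 were called over the 44 libraries and 5 rose in the fit to the 7 libraries. The sum of 15 blood genes was 3286 to 4582 and 3830 to 5089. The part of these tissues in the results was not tested. In PND0 the mitochondrial share of reads was 6.15% ± 0.403 (SD, n = 4) and in PND5 7.03% ± 0.897 (n = 3, two-sided exact permutation p = 0.114; the smallest p that 4 against 3 libraries allow is 0.0571).

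Between birth and day 5, 1969 of 14273 genes (13.8%) changed, 1114 upward (7.8%) and 855 downward (5.99%), at a Benjamini-Hochberg adjusted p under 0.05 in limma on log2(FPKM + 1). The spread was estimated over all 44 libraries, and log2 differences below are on this scale, which understates the change of low genes. In 3366 genes (23.6%) the FPKM of the newborn and day-5 libraries did not overlap. On a TPM scale, on which the FPKM of a library sum to a fixed total, 767 genes rose (5.37%) and 1084 fell (7.59%), so the balance of rises and falls depends on the scaling. The count was 865 without PND5_WT replicate 2, 1062 in a fit to the 7 libraries alone and 4269 with libraries weighted by their quality. Of the genes tested, 143 and 55 passed the filter only through the newborn or only through the day-5 libraries and had to differ; Ret, Syt6, Fgf20, Cd163, Osr1 and Meox1 are of the first kind and Egf and Ucp1 of the second. Genes just inside the filter, with 3 libraries at 1 FPKM or more, numbered 371 with a median of 0.970 FPKM, and those just outside, with 2 such libraries, 459 with a median of 0.785 FPKM.

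**Figure D1:**
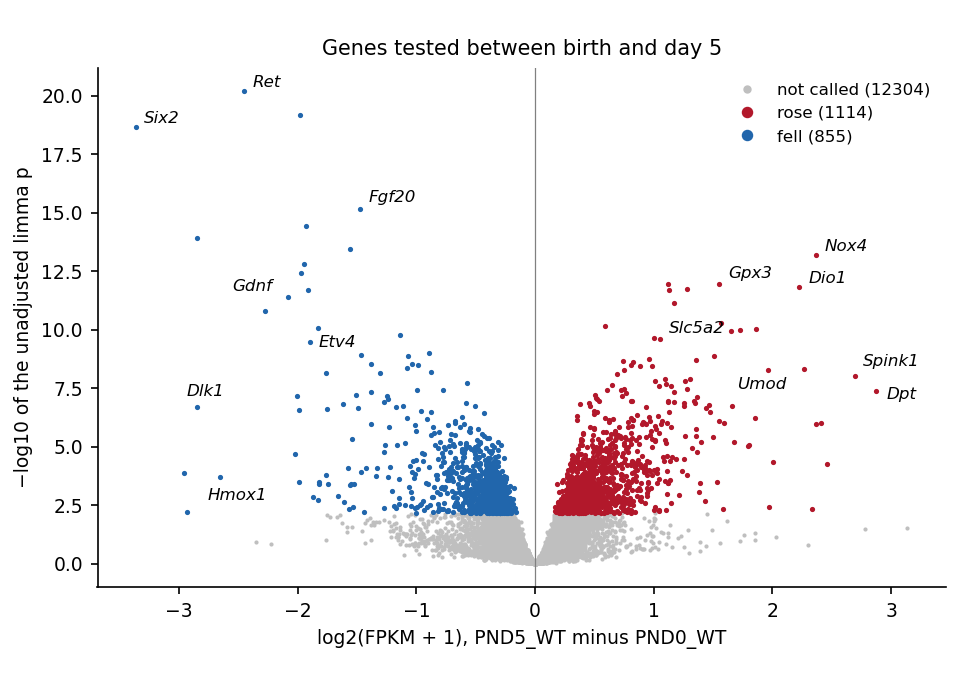
Log2 difference of FPKM + 1 between PND5_WT (n = 3) and PND0_WT (n = 4) libraries on the horizontal axis against the unadjusted limma p on a −log10 scale, 1 point per gene tested. The 855 genes that fell are on the left, with Six2 and Ret at the top, and the 1114 that rose are on the right, with Nox4, Dio1 and Gpx3 at the top.

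The markers of the stage lay far apart between the ages. Six2, the regulator that holds nephron progenitors undifferentiated, stood at 16.3, 13.2, 23.2 and 12.8 FPKM in the newborn libraries and at 0.432, 0.558 and 1.001 at day 5. Ret, the tip receptor, stood at 5.57, 5.15, 6.65 and 5.93 FPKM and then at 0.148, 0.225 and 0.368. The groups were far apart for both, and at day 5 PND5_WT replicate 3 was the highest for both. Six2 fell by 3.36 ± 0.19 log2 units (SE, limma adjusted p = 1.08e-15), a mean 24.7 times lower, and Ret fell by 2.45 ± 0.12 (adjusted p = 9.14e-17), a mean 23.5 times lower. In such bulk RNA, fewer cells of a type and less RNA per cell cannot be told apart. Nox4, an oxidase of the tubule that makes hydrogen peroxide, stood at 6.51, 5.84, 5.97 and 11.8 FPKM and then at 39.0, 43.4 and 42.0. Spink1, an inhibitor of trypsin, stood at 0.870, 1.05, 0.867 and 3.27 FPKM and then at 12.3, 15.2 and 15.4. Neither gene overlapped between the ages, and in each the highest newborn library was PND0_WT replicate 4. Nox4 rose 5.50-fold (2.37 ± 0.20 log2, adjusted p = 1.18e-10) and Spink1 9.44-fold (2.70 ± 0.36, adjusted p = 2.68e-06). All 4 calls held with each of the 7 libraries left out in turn and in the fit to the 7 libraries alone. Ret, however, passed the filter only through the newborn libraries and had to differ. Six2 reached 1 FPKM at day 5 in PND5_WT replicate 3 alone, so both calls are descriptions.

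**Figure D2:**
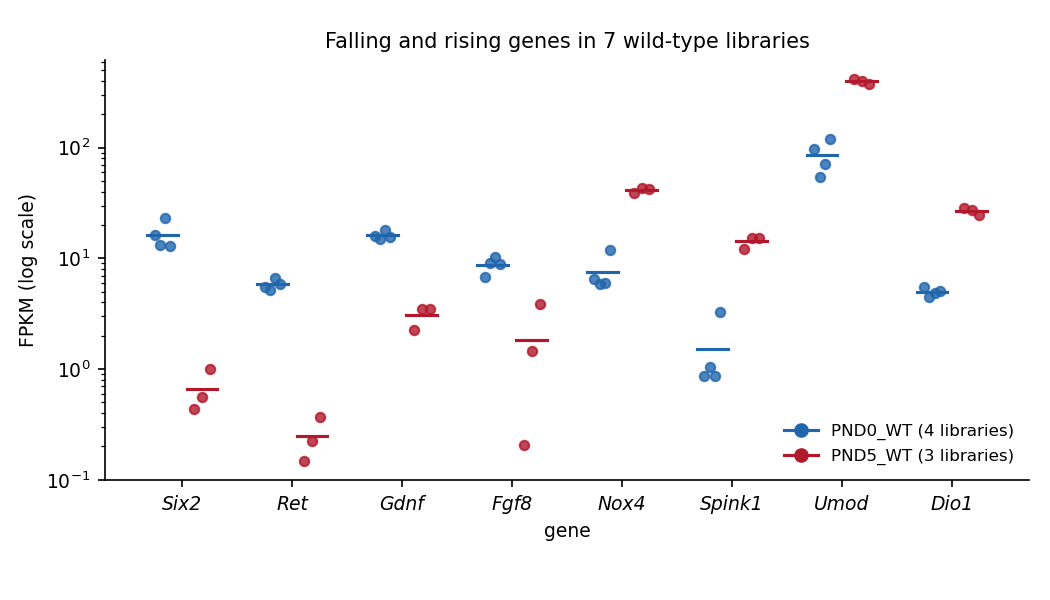
FPKM on a log scale of 8 genes in 4 PND0_WT (blue) and 3 PND5_WT (red) libraries, with 1 point per library and a bar at the group mean. Six2, Ret, Gdnf and Fgf8 are lower at day 5 and Nox4, Spink1, Umod and Dio1 higher, with no overlap between the ages.

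The promoters of these markers and of Gdnf, the ligand of Ret, are shown because the markers range from no CG dinucleotide to many in this stretch. Each sequence is the 250 bases before the gene's start in RefSeq, build GRCr8, read 5′ to 3′ on the gene's strand, with CG dinucleotides in capitals. The stretches are chr6:14727808-14728057 (plus strand), chr4:153040557-153040806 (minus), chr2:58621077-58621326 (plus), chr1:150313639-150313888 (plus) and chr18:36133597-36133846 (minus).
Six2: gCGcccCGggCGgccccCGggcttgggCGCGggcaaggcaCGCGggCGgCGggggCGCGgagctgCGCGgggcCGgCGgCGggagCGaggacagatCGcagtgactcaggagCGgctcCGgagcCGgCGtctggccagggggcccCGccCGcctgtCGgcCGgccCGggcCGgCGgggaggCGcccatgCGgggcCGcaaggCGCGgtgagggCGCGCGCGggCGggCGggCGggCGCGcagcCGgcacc
Ret: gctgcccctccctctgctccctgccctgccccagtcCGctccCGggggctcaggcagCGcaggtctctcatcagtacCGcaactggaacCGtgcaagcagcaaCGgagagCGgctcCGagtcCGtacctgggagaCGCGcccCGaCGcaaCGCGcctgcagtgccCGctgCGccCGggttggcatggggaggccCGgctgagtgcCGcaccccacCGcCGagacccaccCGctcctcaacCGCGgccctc
Gdnf: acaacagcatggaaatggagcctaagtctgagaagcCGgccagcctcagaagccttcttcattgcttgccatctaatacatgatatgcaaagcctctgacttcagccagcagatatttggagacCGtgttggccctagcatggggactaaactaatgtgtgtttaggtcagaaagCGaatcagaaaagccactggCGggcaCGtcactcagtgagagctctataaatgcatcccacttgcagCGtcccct
Nox4: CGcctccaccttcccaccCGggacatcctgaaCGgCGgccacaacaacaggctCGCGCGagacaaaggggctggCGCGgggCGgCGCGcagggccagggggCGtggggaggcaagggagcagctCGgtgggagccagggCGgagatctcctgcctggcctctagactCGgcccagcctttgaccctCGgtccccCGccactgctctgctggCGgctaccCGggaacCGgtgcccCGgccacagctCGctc
Spink1: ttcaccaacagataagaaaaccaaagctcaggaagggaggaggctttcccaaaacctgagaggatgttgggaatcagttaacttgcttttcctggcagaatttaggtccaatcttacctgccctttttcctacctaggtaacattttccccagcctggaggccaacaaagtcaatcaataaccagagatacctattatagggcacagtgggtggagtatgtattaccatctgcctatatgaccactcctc
The Six2 promoter holds 45 CG, that of Ret 25, that of Nox4 23, that of Gdnf 6 and that of Spink1 0. By symbol, 8872 of the 14273 genes tested had a promoter in the table. Of 24206 promoters of this length, 92.5% hold a CG (the same letters on either strand), with a median of 6. The median was 16 over genes tested, 13 over 763 genes that rose and 18 over 572 that fell. It was 5 over the 14 rising proximal tubule transport genes with a promoter, and 16 over 6 falling progenitor genes. The ranges overlap widely, from 6 to 20 (quartiles) in genes that rose and from 11 to 24 in genes that fell, and the difference was not tested.

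Of 5 secreted signals of the nephrogenic zone described here, Gdnf, Fgf20, Fgf8 and Rspo1 fell and Wnt11 was not called. They were picked in part for a small p. Other tested signals of the same lists, such as Fgf9, Rspo3, Bmp7 and Wnt4, are not described, so the count is no measure of the zone's signals. Gdnf stood at 16.0, 15.0, 17.97 and 15.5 FPKM in newborns and at 2.27, 3.49 and 3.51 at day 5, and fell by 2.08 ± 0.20 log2 units (adjusted p = 3.50e-09). Fgf20, a growth factor that keeps progenitors alive, stood at 1.55, 1.56, 2.50 and 1.60 FPKM and had 0 reads in each day-5 library, at least 17.0-fold lower (a floor of 3 reads over the group). Fgf20 thus passed the filter through the newborn libraries alone. Fgf8, which early nephrons need to survive, stood at 6.81, 9.07, 10.3 and 8.90 FPKM and then at 0.207, 1.45 and 3.89. The day-5 libraries thus spread widely for Fgf8, but all lay under the newborn ones, and it fell by 1.99 ± 0.31 (adjusted p = 3.46e-05). Rspo1, which amplifies WNT signals, went from 9.17 ± 1.19 to 2.09 ± 0.967 FPKM (SD; log2 difference -1.76, adjusted p = 2.10e-06). By contrast Wnt11, a ligand made by the ureteric tip, stood at 46.1, 36.4, 24.0 and 38.6 FPKM at birth and at 33.7, 35.2 and 28.5 at day 5, and was not called (log2 difference -0.12 ± 0.28, adjusted p = 0.821). At PND15 Wnt11 was at 11.0 ± 0.541 (n = 4) and at PND21 at 2.37 ± 1.06 (n = 3).

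On the receiving side, Ret's partner and some of its targets moved with it, by smaller amounts. Of 15 tested genes of the ureteric tip and trunk, 7 fell (46.7%, against 5.99% of all genes tested) and 8 were not called. Their median was -0.32 log2 (0.00 over all genes tested). Among the 7 was Ret, which passed the filter only through the newborn libraries. Gfra1 stood at 17.9, 18.3, 28.3 and 20.5 FPKM and then at 4.87, 5.15 and 11.7 (log2 difference -1.51 ± 0.22, adjusted p = 1.18e-05). Etv4 stood at 21.2, 20.3, 23.1 and 22.2 FPKM and then at 3.79, 3.76 and 8.92 (-1.89 ± 0.22, adjusted p = 1.72e-07). PND5_WT replicate 3 was again the highest day-5 library, yet below each newborn. It was the highest day-5 library in 5 of the 7 falls of this list and in 492 of all 855 genes that fell. PND0_WT replicate 3 was the highest newborn in 6 of these 7 falls and in 410 of the 855. Wnt11 and Spry1 of this list were not called, while Sox9, Dusp6, Spry2 and Etv5 made up the rest of the falls. Without PND5_WT replicate 2 the count was 3, and without PND0_WT replicate 3 it was 4; Ret, Etv4 and Gfra1 held without any single library. Sox9 (log2 difference -0.74, adjusted p = 0.0132) lost its call without PND5_WT replicate 1 (adjusted p = 0.0590) or replicate 2 (adjusted p = 0.0751).

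Nephron progenitor genes fell in 12 of 18 tested (66.7%), against 5.99% of all genes tested. Their median was -0.86 log2, and Crym alone rose. TPM also gave 12 falls and 1 rise. Eya1, a partner of Six2, stood at 6.41, 7.45, 9.12 and 5.67 FPKM and then at 0.742, 0.822 and 1.88 (-1.95 ± 0.17, adjusted p = 2.41e-10). Uncx, a homeobox factor, went from 27.2 ± 3.21 to 7.11 ± 2.35 FPKM (-1.83, adjusted p = 5.64e-08). Osr1 went from 3.12 ± 1.39 to 0.688 ± 0.139 (-1.24, adjusted p = 1.63e-05). Cited1, a mark of the least committed progenitors, stood at 11.1 ± 2.80 and 4.27 ± 0.440 FPKM (-1.17, adjusted p = 2.87e-05). The day-5 means of Six2 and Ret were thus under 1 FPKM, while Cited1, Gdnf, Uncx and Etv4 stood between 3.09 and 7.11 FPKM. Crym, a thyroid hormone binding protein, rose from 61.7 ± 9.73 to 96.1 ± 9.75 FPKM (adjusted p = 0.0166), a call lost without PND0_WT replicate 2 (adjusted p = 0.0779) or PND5_WT replicate 2 (adjusted p = 0.103). With a library left out the falls numbered 9 to 11. Of the 12, Fgf20, Osr1 and Meox1 passed the filter only through the newborn libraries, so the count is a description. In WT at PND15 the mean was 0.025 FPKM for Six2 and 0.204 for Gdnf.

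Genes of the structures that progenitors form fell in part. Of 22 tested genes of renal vesicles and early nephron segments, 6 fell (27.3%, against 5.99% of all genes tested) and 16 were not called. Their median was -0.18 log2. Pax2 went from 59.1 ± 6.30 to 32.7 ± 1.90 FPKM (-0.83, adjusted p = 0.00532) and Notch2 from 20.3 ± 2.29 to 12.8 ± 1.28 (-0.63, adjusted p = 0.000135). Lhx1, which patterns the vesicle, stood at 33.0, 34.6, 26.4 and 29.3 FPKM and then at 13.7, 12.6 and 27.6. PND5_WT replicate 3 thus lay among the newborns, and without PND5_WT replicate 2 the call was lost (adjusted p = 0.00401 with it, 0.0733 without) and the list's count was 3. Of 37 cell cycle genes, limma over the 44 libraries and voom called 0, limma on TPM called 1 fall and limma on the 7 libraries alone called 4 falls. Over the 44 libraries 4 of the 37 had an unadjusted limma p under 0.05, all lower at day 5. Of all 14273 genes tested 3923 had such a p, with 1827 of them lower. The median of the cell cycle genes was -0.26 log2 in WT, 0.04 in Het and 0.09 in Homo. Mki67 was at 21.2 ± 2.12 and 15.8 ± 1.23 FPKM (adjusted p = 0.354; 0.0426 in the fit to the 7 libraries).

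**Figure D3:**
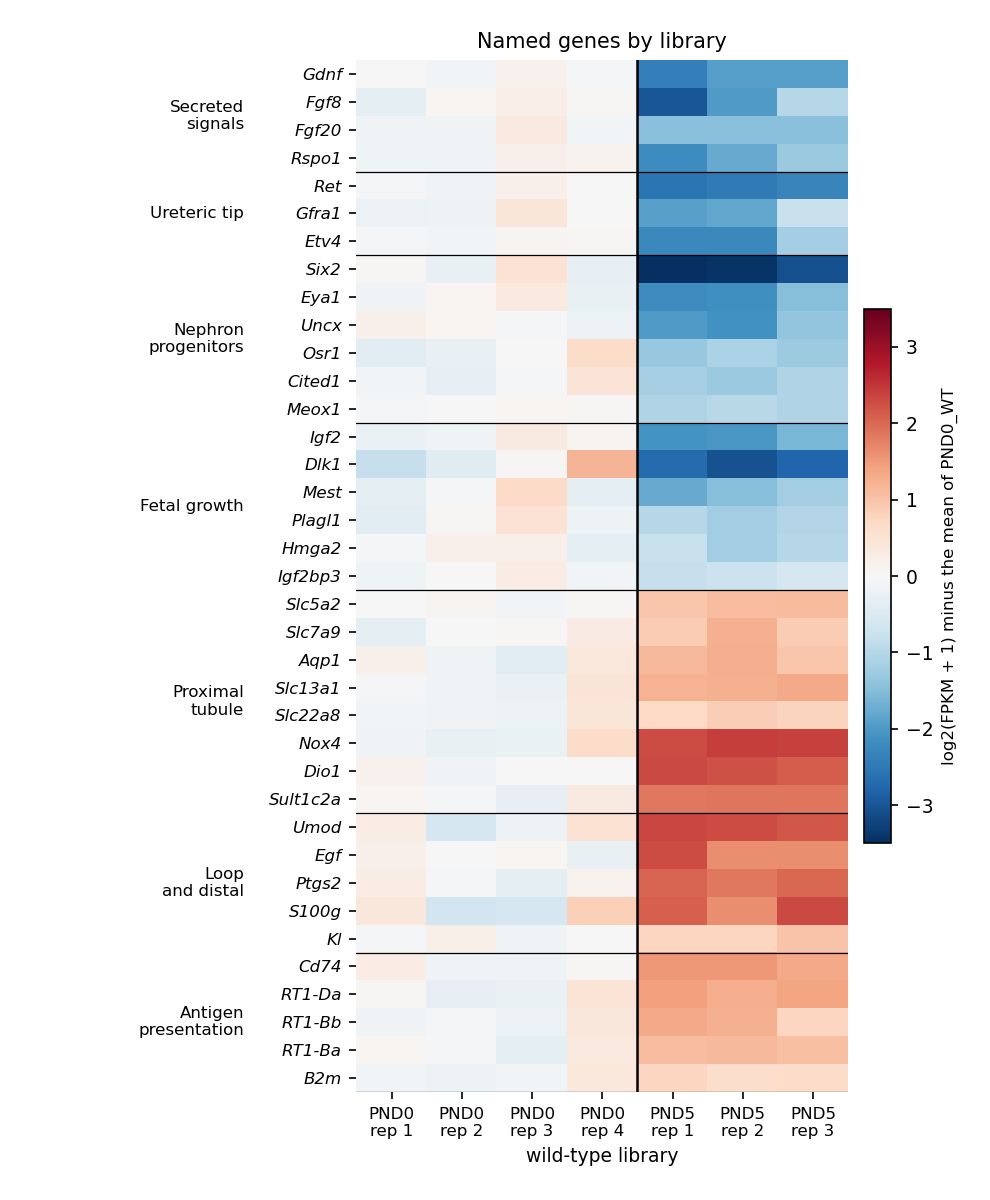
Log2(FPKM + 1) minus the mean of the 4 PND0_WT libraries for 37 genes (rows) in the 7 wild-type libraries (columns), blue for lower and red for higher. Falling genes of PND5_WT replicate 3 are paler than those of the other day-5 libraries for Fgf8, Gfra1 and Etv4.

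Genes of fetal growth fell with the progenitor genes. Of 14 tested imprinted growth genes 7 fell (50%, against 5.99% of all genes tested) and 7 were not called. Their median was -0.44 log2. Igf2, the fetal growth factor, stood at 51.2, 54.2, 75.1 and 64.8 FPKM and then at 13.5, 13.96 and 19.2 (-1.91 ± 0.18, adjusted p = 1.84e-09). Dlk1, a Notch-like inhibitor of differentiation, stood at 15.8, 20.7, 29.0 and 66.0 FPKM and then at 3.48, 2.53 and 3.26, without overlap (-2.84 ± 0.44, adjusted p = 2.76e-05). Its highest value was in PND0_WT replicate 4, where adrenal and muscle markers were also high; their part was not tested, and the call held without that library. Mest went from 112 ± 40.0 to 37.8 ± 7.32 FPKM, Plagl1 from 62.5 ± 17.3 to 28.4 ± 2.59, Peg3 from 51.0 ± 6.27 to 27.7 ± 1.90 and Grb10, which restrains insulin signalling, from 55.6 ± 8.07 to 36.4 ± 4.64. Cdkn1c, an imprinted inhibitor of cell division, was at 218 ± 28.2 and 299 ± 41.8 FPKM and was not called (adjusted p = 0.193). Of 8 tested partners of the Lin28 pathway, which marks fetal stages, 5 fell (62.5%, against 5.99% of all genes tested). These were Hmga2 (-0.99, limma adjusted p = 8.38e-06), Igf2bp1, Igf2bp2, Igf2bp3 and Hmga1, and the list median was -0.59 log2. Hmga2 was at 17.2 ± 2.85, 8.10 ± 1.301, 2.24 ± 0.363 and 1.23 ± 0.501 FPKM at PND0, PND5, PND15 and PND21. The 5 falls held with any library left out. Igf2bp1 overlaps another gene of the table on the same strand, so its reads are uncertain.

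Transport genes of the proximal tubule, which reclaims glucose, amino acids, ions and water, rose in 16 of 31 tested, with a median of 0.45 log2; the other 15 were not called. With TPM the count was 13, and without PND5_WT replicate 2 the count was 8. Slc5a2, the main glucose carrier, stood at 53.8, 57.4, 50.1 and 55.5 FPKM and then at 107, 116 and 118 (1.06 ± 0.12, adjusted p = 1.3e-07); a gene on the other strand overlaps it. Slc7a9 and Slc3a1, which together take up cystine, went from 24.7 ± 4.64 to 50.6 ± 7.87 and from 166 ± 15.1 to 246 ± 14.5 FPKM. Aqp1, the water channel, stood at 100.4, 80.1, 67.0 and 115 FPKM and then at 196, 217 and 174 (1.12 ± 0.17, adjusted p = 2.07e-05). Slc13a1, a sulfate carrier, rose 2.44-fold (adjusted p = 2.64e-05) and Slc22a8, an organic anion carrier, 1.70-fold (adjusted p = 0.000562). In PND0_WT replicate 4, 10 of these 16 genes were at their highest newborn value; over all genes that rose, 614 of 1114 were. Of 30 tested enzymes of the same cells, 4 rose (Hao2, Agxt2, Dao and Dpp4), 13.3% against 7.8% of all genes tested. The other 26 were not called, the median was 0.14 log2, and 2 rose without PND5_WT replicate 2. Without PND0_WT replicate 4, and also in the fit to the 7 libraries, 6 rose and 2 fell. Dao lost its call without PND5_WT replicate 2 (adjusted p = 0.0929). Dpp4 kept its call in only 1 of 7 fits leaving out a library, that without PND0_WT replicate 4. Agxt2, a mitochondrial aminotransferase, went from 135 ± 15.4 to 224 ± 17.4 FPKM (adjusted p = 0.00242). Of 19 tubule transcription factors, limma over the 44 libraries called 0, with 4 higher and 1 lower at an unadjusted p under 0.05. Of all 14273 genes tested, 2096 were higher and 1827 lower at such a p. The fit to the 7 libraries called 3 rises, and voom and TPM each called 1 fall.

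The 12 largest rises also included Dio1, Kap, Sult1c2a, Alox15, Prima1 and Dpt, whose known roles differ. Dio1, the deiodinase that activates thyroid hormone, stood at 5.57, 4.44, 4.89 and 5.05 FPKM and then at 28.6, 27.2 and 24.8 (2.22 ± 0.21, adjusted p = 1.63e-09). Its WT means at PND15 and PND21 were 123 ± 15.7 and 220.0 ± 24.0. Kap, an androgen-regulated kidney protein, stood at 88.2, 73.9, 45.9 and 93.6 FPKM and then at 366, 367 and 405 (2.36 ± 0.40, adjusted p = 0.000109). Sult1c2a, a sulfotransferase with close paralogs whose reads may be shared, went from 9.18 ± 1.78 to 35.6 ± 0.422 FPKM (1.86, adjusted p = 5.75e-08). Alox15, a lipoxygenase, stood at 15.5, 11.1, 3.63 and 10.4 FPKM and then at 53.1, 58.2 and 52.9 (2.46 ± 0.53, adjusted p = 0.00187). Prima1, a membrane anchor of acetylcholinesterase, rose 9.19-fold and Dpt, a matrix protein, 7.57-fold. Dpt stood at 1.03, 1.13, 0.823 and 7.64 FPKM and then at 18.4, 22.0 and 19.9, so PND0_WT replicate 4 lay between its age group and day 5.

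Further along the nephron, a few genes rose several-fold while the sodium carrier Slc12a1 was not called. In the thick ascending limb and macula densa, 4 of 14 tested genes rose, with a median of 0.23 log2. Among the 4 was Egf, which passed the filter only through the day-5 libraries. Umod, the most abundant protein of urine, stood at 97.9, 54.5, 71.1 and 119.5 FPKM and then at 416, 403 and 375 (2.26 ± 0.29, adjusted p = 1.47e-06). Egf stood at 0.443, 0.281, 0.320 and 0.0686 FPKM and then at 5.22, 2.94 and 2.93 (1.85 ± 0.30, adjusted p = 6.91e-05), and was at 38.9 ± 14.2 at PND15. Ptgs2, the cyclooxygenase of the macula densa, stood at 8.11, 6.30, 5.04 and 7.26 FPKM and then at 30.4, 26.3 and 29.3 (1.96 ± 0.26, adjusted p = 1.67e-06). Its mean was 37.3 ± 5.59 at PND15 and 28.1 ± 5.86 at PND21, close to day 5. Slc12a1, the sodium carrier of this segment, was at 235 ± 26.6 and 253 ± 12.5 FPKM and was not called (0.11 ± 0.14, adjusted p = 0.661). Of 12 distal and connecting tubule genes 2 rose, 16.7% against 7.8% of all genes tested. In this list and those of principal and intercalated cells, 2 genes are too few to read as a rise of the list. Kl, the co-receptor of FGF23, went from 28.4 ± 3.06 to 51.4 ± 5.26 FPKM (adjusted p = 0.00313). S100g, a calcium-binding protein, stood at 2.79, 0.820, 0.927 and 4.14 FPKM and then at 11.2, 7.86 and 13.3 (2.01 ± 0.43, adjusted p = 0.00163), but Ctps2, on the other strand, overlaps it at a higher level. Of 13 principal cell genes 2 rose, yet 8 were lower and the median was -0.20 log2; the fit to the 7 libraries called 2 rises and 3 falls. The rises included Hsd11b2, which shields the mineralocorticoid receptor, going from 94.0 ± 27.2 to 231 ± 20.9 FPKM (adjusted p = 0.000609); the other rise was lost in 6 of 7 fits leaving out a library, all but that without PND0_WT replicate 4. In intercalated cells 2 of 13 rose (1 without PND5_WT replicate 2), with Atp6v1b1, a proton pump subunit, at 23.1 ± 3.53 and 38.5 ± 1.51 FPKM (adjusted p = 0.00501).

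**Figure D4:**
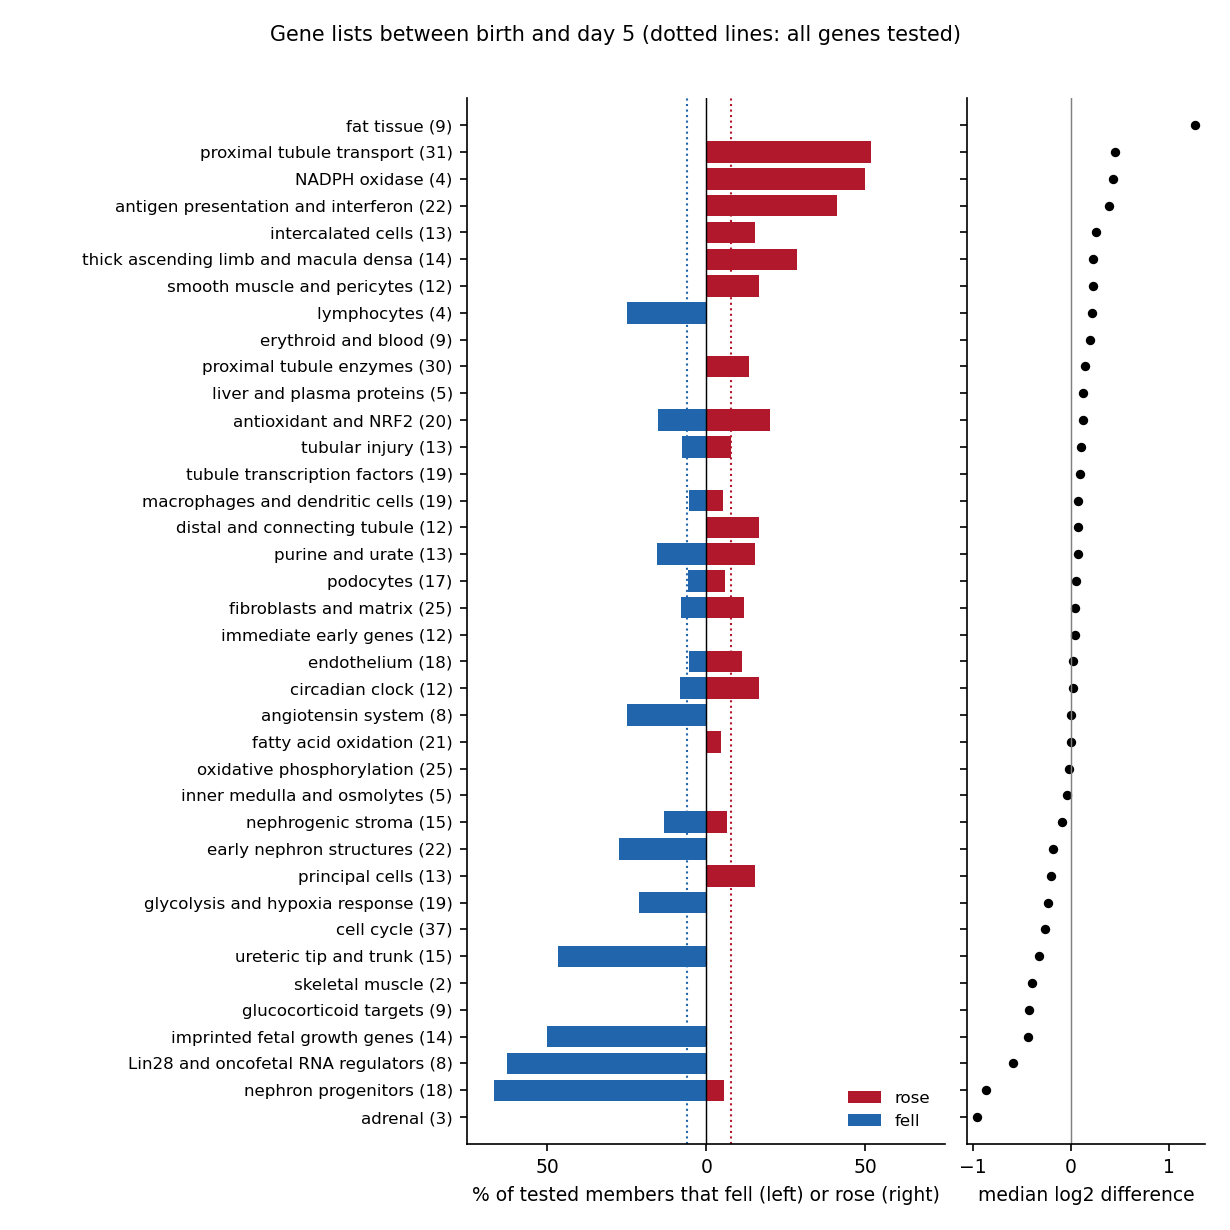
Share of the tested members of each of 38 gene lists that fell (blue, left) or rose (red, right) between PND0_WT and PND5_WT, with the number tested in parentheses, and the median log2 difference of each list. Dotted lines mark the shares over all genes tested, 5.99% and 7.8%.

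In the glomerulus, vessels and stroma, a minority of each list was called, as was so over all genes tested (7.8% rose and 5.99% fell). Rises ran from 5.88% of podocyte genes to 16.7% of smooth muscle and pericyte genes. Falls ran from 0% of the latter to 13.3% of nephrogenic stroma genes, with fibroblast and endothelial genes between. Of 12 smooth muscle and pericyte genes 2 rose (1 without PND0_WT replicate 3, PND5_WT replicate 1 or PND5_WT replicate 2), and of 15 genes of the nephrogenic stroma 1 rose and 2 fell (1 fall in 6 of 7 fits leaving out a library). Of 25 fibroblast and matrix genes 3 rose and 2 fell, with 1 rise without PND0_WT replicate 1 or 2 or PND5_WT replicate 1 or 2, and 5 rises without PND0_WT replicate 4. Of 17 podocyte genes, Col4a4, a chain of the mature filter membrane, rose from 27.4 ± 2.47 to 44.4 ± 2.65 FPKM (adjusted p = 0.000345) and Wt1 fell from 48.5 ± 1.75 to 34.0 ± 4.67 (adjusted p = 0.0124), a call lost without PND5_WT replicate 1 (adjusted p = 0.0590) or replicate 2 (adjusted p = 0.0945). Plvap, of the fenestrated endothelium, rose from 62.8 ± 1.90 to 97.04 ± 16.0 FPKM (adjusted p = 0.00236), among 18 endothelial genes of which 2 rose and 1 fell (0 to 3 falls with a library left out, 3 without PND0_WT replicate 4). Rgs5, of pericytes, rose from 31.4 ± 3.23 to 53.7 ± 0.899 (adjusted p = 9.92e-06). Fbn2, a fibrillin of fetal matrix, fell from 39.7 ± 5.76 to 17.8 ± 3.36 (-1.12, adjusted p = 2.64e-05). Agtr2, the angiotensin receptor of fetal tissue, stood at 9.94, 10.6, 22.3 and 19.9 FPKM and then at 4.86, 4.75 and 5.57 (-1.38 ± 0.24, adjusted p = 0.000109). Agtr1a, the main angiotensin receptor of the mature kidney, was at 25.1 ± 4.65 and 34.2 ± 2.05 FPKM and was not called (adjusted p = 0.0608).

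Of 22 tested genes of antigen presentation and the interferon response, 9 rose, with a median of 0.39 log2, and 13 were not called. Cd74, the chaperone of MHC class II, stood at 25.3, 18.8, 18.8 and 21.8 FPKM and then at 62.5, 62.2 and 54.6 (1.46 ± 0.23, adjusted p = 2.61e-05). The class II chains RT1-Da, RT1-Ba and RT1-Bb rose 2.91-, 2.90- and 3.52-fold, although reads of this family may be shared between its members. B2m, the light chain of class I, went from 71.1 ± 13.2 to 113 ± 5.87 FPKM (adjusted p = 0.000536). Markers of the cells that carry class II were counted beside them. Of 19 macrophage and dendritic cell genes 1 rose (Cx3cr1) and 1 fell (Cd163), with a median of 0.07 log2; both calls held in only 1 of 7 fits leaving out a library, that without PND0_WT replicate 4, and the summed FPKM of 25 such genes was 130 to 145 at birth and 119 to 141 at day 5. Their part in the class II values was not tested. Cd163 passed the filter only through the newborn libraries. The 1 rise and 1 fall of 19 are 5.26% each, against 7.8% and 5.99% of all genes tested. With a library left out the antigen presentation list had 6 to 10 rises.

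Genes of oxidant handling moved in both directions. Nox4's membrane partner Cyba went from 105 ± 11.1 to 156 ± 10.6 FPKM (0.57, adjusted p = 0.00146), while Cybb, the oxidase of phagocytes, was at 2.44 ± 0.119 and 3.16 ± 0.0973 and was not called (adjusted p = 0.432). Of 20 antioxidant genes 4 rose and 3 fell (20% and 15%), where 7.8% of all genes tested rose and 5.99% fell. Gpx3, the secreted glutathione peroxidase made in the proximal tubule, stood at 1049, 1206, 1078 and 1412 FPKM and then at 3307, 3912 and 3200.4 (1.55 ± 0.15, adjusted p = 1.38e-09). Sod3, Sod1 and Gpx1 rose 1.64-, 1.42- and 1.42-fold. Hmox1, heme oxygenase, stood at 128, 316, 129 and 36.01 FPKM and then at 12.9, 17.1 and 25.7, without overlap but widely spread among newborns. Its fall of 2.65 ± 0.63 (adjusted p = 0.00444) was not called with the 7 libraries alone (adjusted p = 0.0861). Srxn1, sulfiredoxin, fell from 6.53 ± 1.94 to 2.44 ± 0.540 FPKM (-1.10, adjusted p = 0.000425). Nqo1 was at 9.41 ± 3.52 and 5.11 ± 0.864 and was not called (adjusted p = 0.0880). Of 13 purine genes 2 rose and 2 fell, 15.4% each in a small list. There was 1 rise in 6 of 7 fits leaving out a library, and 1 fall without PND0_WT replicate 3, PND5_WT replicate 1 or PND5_WT replicate 2. Xdh itself stood at 2.29, 3.69, 3.78 and 1.60 FPKM and then at 4.36, 4.69 and 3.48, overlapping between the ages (0.47 ± 0.61, adjusted p = 0.662). Nt5e, which makes adenosine, rose from 4.26 ± 0.957 to 8.95 ± 0.811 FPKM (adjusted p = 2.92e-05). Of 25 oxidative phosphorylation genes, limma over the 44 libraries and voom called 0 and limma on TPM called 1 fall. Their median was -0.02 log2, and 1 gene, higher at day 5, had an unadjusted limma p under 0.05. Of all 14273 genes tested 3923 had such a p. Of 21 fatty acid oxidation genes Hadh alone rose, 1.88-fold (adjusted p = 9.76e-05; 3 genes rose without PND0_WT replicate 4).

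The same ages could be compared in Het and Homo animals, which share no library with WT. In 3 newborn libraries Xdh went against the label: it was higher in the libraries labelled PND0_Het replicate 2 (26.8 FPKM) and PND0_Homo replicates 3 and 4 (11.7 and 22.5) than in any newborn WT library (1.60 to 3.78). In Het, 1763 genes (12.4%) changed, and in Homo 1010 (7.08%); with those 3 libraries set aside, a choice made after seeing the data, the counts were 1046 and 251. The fit to all libraries shares 1 estimate of the spread between genotypes. Of the 1114 genes that rose in WT, 621 rose in Het (55.7% of the WT list and 58.2% of the Het list) and 395 in Homo (35.5% and 64.6%), where 7.48% and 4.28% of all genes tested rose. Of the 855 that fell, 314 fell in Het (36.7% and 45.1%) and 176 in Homo (20.6% and 44.1%), against 4.88% and 2.8% of all genes. A test of the difference in age change called 0 genes (0.0%) for WT against Het and 0 (0.0%) against Homo in limma. Of 14273 genes, 658 and 1159 had an unadjusted limma p under 0.05, which chance alone gives in a share of about 0.05. voom also called 0 in each, and limma with weighted libraries called 0 and 115. The smallest p against Homo was that of Six2, which fell by 3.36 in WT, 2.79 in Het and 2.20 in Homo, with newborn means of 16.4 ± 4.84, 11.0 ± 2.21 and 9.18 ± 1.89 FPKM (adjusted p of the difference from Homo = 0.403). Ret fell by 2.45, 2.07 and 2.03 log2 units and Nox4 rose by 2.37, 2.33 and 1.79.

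**Figure D5:**
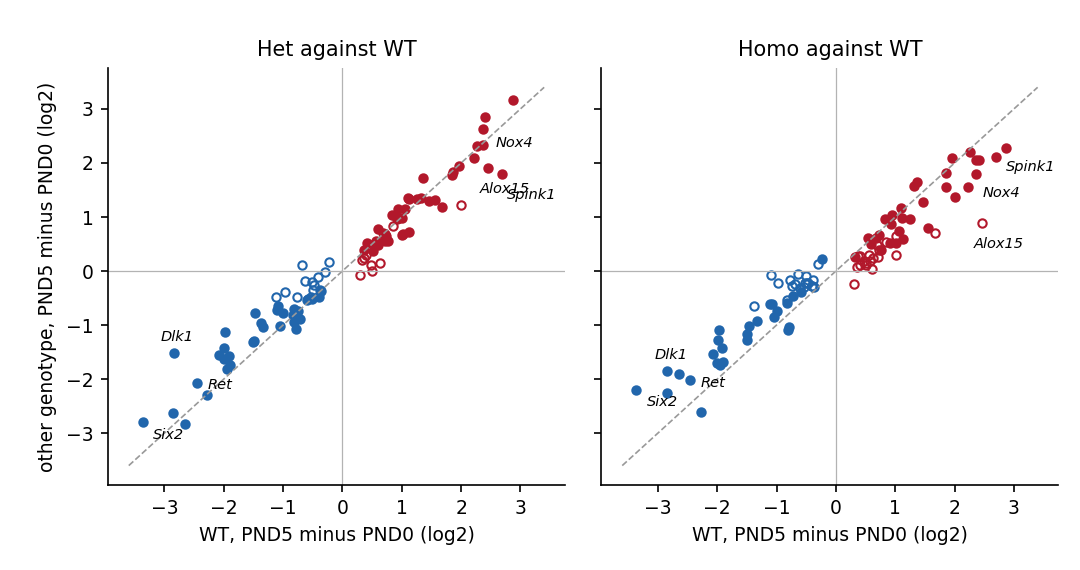
Log2 difference between PND5 and PND0 in Het (left) and Homo (right) animals against that in WT, for the named genes called in WT (red for rises, blue for falls; filled where also called in the other genotype). The dashed line marks equal change; 0 genes passed the test of a difference between genotypes.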

How the data were processed

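FPKM values of all libraries and the gene lengths came in 1 table made by the authors. Per the submitters' processing notes, featureCounts 1.5.0-p3, StringTie 1.3.3b, HISAT2 2.0.5 and fastp were used; the genome build and strandedness are not given in the sources used here. FPKM times gene length gave whole reads (within 0.01 read), which set the depths and the voom alternative. Genes with at least 1 FPKM in at least 3 of the 7 libraries were tested as log2(FPKM + 1) with limma 3.58.1 (R 4.3.3, statmod 1.5.0; trended, robust) as 12 group means over 44 libraries (32 residual degrees of freedom; 5 with 7 libraries), adjusted by Benjamini-Hochberg over all 14273. Precision rests on 3 or 4 libraries a group and 12686228 to 20895970 reads. The scripts were tested on simulated data. Of 701 entries in 38 lists, 679 matched and 567 were tested. Genes and lists were chosen with earlier results of these data known. Named were the 4 markers, the 12 largest rises and falls among called, non-overlapping genes reaching a mean of 5 FPKM, up to 4 called members of each list by smallest p, other members for their role, and the 5 smallest p of each genotype test. A group at 0 was compared with a floor of 3 reads. Overlapping and paralogous genes are uncertain. A few named genes are not reported here. Promoters came from RefSeq, GRCr8. Alternatives were another pseudocount, filters, TPM, median ratios, library weights, voom, fewer groups and each library left out.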

Additional observations from a re-analysis of the deposited data

Results flagged for a closer look

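In 5 of 99 values examined in the 4 newborn libraries, 1 library stood apart from the other 3 by more than the 95% critical value of Dixon's test on log2(FPKM + 1), which chance reaches in about 5% of groups. Of these, 4 were in PND0_WT replicate 4: Nox4 at 11.8 FPKM (the others 5.84 to 6.51), Spink1 at 3.27 (0.867 to 1.05), Dpt at 7.64 (0.823 to 1.13) and Agxt2 at 158 (126 to 127). All 4 are genes that rose by day 5, and the library also held the highest sums of skeletal muscle and adrenal genes; their part was not tested. Fgf20 was at 2.50 FPKM in PND0_WT replicate 3, against 1.55 to 1.60 in the others.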

How the results depend on the processing

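The 1969 WT calls became 4269 with weighted libraries and 1062 with only the groups compared, and ran from 865 to 2282 with a library left out (865 without PND5_WT replicate 2). Other alternatives gave 1582 to 2003. Of 118 named calls, 85 held in each of the 7 fits leaving out a library, as did 729 of all 1969. The 1763 Het calls became 1143 with only this genotype, 792 with only the groups compared and 1046 with newborn libraries set aside, and 852 to 2139 leaving out a library. The 1010 Homo calls became 365, 251 (libraries set aside) and 432 to 1302. WT against Het gave 1 call with no filter, 1 with only the groups compared and 0 to 1 leaving out a library. WT against Homo gave 1 with no filter and 115 with weighted libraries. Wnt11, not called, had a log2 difference of 0.00036 without PND0_WT replicate 1 and -0.30 without replicate 3. The causes were not tested. The mitochondrial difference ran from 0.374 to 1.23 percentage points leaving out a library. No paired analysis was possible because no label numbers the replicates.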

Other observations

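Genes were also counted by the protein domain the deposited table names, over 74 families of at least 20 tested genes; those given here were chosen after their values were seen, so the counts are a description. Of 153 genes with an RNA recognition motif, 35 fell and 2 rose (median -0.20 log2; 5.99% of all genes tested fell and 7.8% rose), with 9 and 0 in the fit to the 7 libraries alone. In Het and Homo the falls numbered 7 and 6 of 153, near the 4.88% and 2.8% of all genes tested that fell there. Ncl, nucleolin, which acts in ribosome assembly, fell from 216 ± 33.2 to 162 ± 16.8 FPKM (SD, n = 4 and 3; limma adjusted p = 0.00302; 0.0890 with the 7 libraries). Of 32 genes with the ATPase domain of chromatin remodellers, 9 fell and 0 rose, with 2 falls in the fit to the 7 libraries. In Het 2 fell and in Homo 0, where 4.88% and 2.8% of all genes tested fell. Smarca4 went from 41.3 ± 1.70 to 31.8 ± 1.73 FPKM (limma adjusted p = 0.000834) and Chd7 from 5.16 ± 0.550 to 3.13 ± 0.363 (adjusted p = 4.76e-06).

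Of 109 tested small GTPases of the Ras family, 15 rose (13.8%) and 0 fell, where 7.8% of all genes tested rose and 5.99% fell. With TPM 6 rose and 1 fell, a share of rises near that of all genes on this scale (5.37%). In Het 16 rose and 1 fell, and in Homo 5 rose and 1 fell, where 7.48% and 4.28% of all genes tested rose. Rhobtb1 rose from 12.7 ± 1.02 to 18.1 ± 1.42 FPKM (limma adjusted p = 0.000241). Of 47 carriers of the major facilitator family 10 rose (21.3%) and 1 fell (9 and 2 with TPM). In Het 7 of these carriers rose and 6 fell, and in Homo 3 rose and 3 fell. Of 21 sulfotransferases 7 rose (33.3%) and 2 fell, some of them paralogs that may share reads. In Het 8 sulfotransferases rose and 1 fell, and in Homo 7 rose and 0 fell.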
